A study of Mus musculus with 4 samples.

Results

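Phosphoinositide 3-kinase (PI3K) subunit genes and genes of their regulators were compared between the CLP_RAGhigh and CLP_RAGlow fractions of the mouse common lymphoid progenitor (CLP), the bone marrow precursor of B cells, T cells and natural killer cells. The 9 genes were Pik3r6, Pik3r5, Pik3cg, Pik3cd, Pik3ca, Pik3cb, Pik3r1, Pik3ap1 and Inpp5d, out of 18193 genes measured, and they were represented by 26 of 34945 probe sets annotated to a single gene. Pik3r6 was chosen by its difference between the same groups, so its values are a description without a test. The other 8 genes were taken because of their place in the pathway. Their names were listed with earlier results of these data known.

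RNA from 2000 sorted cells per sample was amplified and hybridised to Affymetrix MOE430_2 arrays, on which each probe set reads 1 or more transcripts of a gene. There were 2 samples of CLP_RAGhigh and 2 of CLP_RAGlow, all from the bone marrow of C57Bl6 mice aged 8 to 12 weeks. The descriptions name the fractions CLPGFPhigh and CLPGFPlow, but do not describe the GFP reporter, the number of animals or any pooling, and no treatment is named for either fraction. The replicates are called biological, without saying whether animals or sorts were separate, so p-values measure the spread between these samples only.

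Class I PI3K enzymes phosphorylate a membrane lipid to make phosphatidylinositol trisphosphate (PIP3), which recruits AKT, BTK and other proteins with lipid-binding domains. Each enzyme pairs a catalytic subunit with a regulatory one. PI3K gamma, with its catalytic subunit p110 gamma, answers to G protein-coupled receptors such as chemokine receptors, while the alpha, beta and delta forms bind p85-type subunits and answer largely to tyrosine kinase signals. In B-cell precursors PI3K acts downstream of the interleukin-7 receptor and the pre-B-cell receptor, and AKT holds back FOXO1, a transcription factor needed for Rag gene expression.

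All 7 measured CLP markers, among them Il7r, Flt3 and Dntt, had a mean log2 intensity above 3.88, the median over all probe sets. Of all genes, 36.4% had a mean below it at their brightest probe set, so passing it says little of identity. Rag1, which encodes a subunit of the V(D)J recombinase, read 10.92 and 10.62 in CLP_RAGhigh and 7.72 and 8.53 in CLP_RAGlow, in the order of the fractions' names. The ratio of 3′ to 5′ Actb signal, a measure of RNA integrity and amplification, was 16.2 and 9.62 in CLP_RAGhigh and 13.5 and 24.5 in CLP_RAGlow. Summed linear intensities of 7 B-lineage genes were 2763 and 2648 on the CLP_RAGhigh arrays, against 422 and 466 on the CLP_RAGlow arrays. Vpreb1 and Ebf1 weighed most in the CLP_RAGhigh sums. These genes, Cd79a, Cd79b and Pax5 were each higher on both CLP_RAGhigh arrays. Igll1 overlapped. Ms4a1, the 1 B-lineage gene with a mean below the median of all probe sets, read 2.97 and 2.61 in CLP_RAGhigh against 3.04 and 3.32 in CLP_RAGlow. The fractions were also separate in the sums over 5 erythroid and megakaryocyte genes, at 198 and 148 in CLP_RAGhigh against 113 and 89.1 in CLP_RAGlow. Klf1 made most of this gap, with log2 values of 6.94 and 6.05 in CLP_RAGhigh and 5.24 and 3.7 in CLP_RAGlow. Pf4, with a mean below the median of all probe sets, was also higher on both CLP_RAGhigh arrays. Epor, Itga2b and Hba-a1 were not. The sums overlapped for 5 plasmacytoid dendritic genes, at 1555 and 3249 in CLP_RAGhigh and 3017 and 3760 in CLP_RAGlow, and for 8 myeloid genes, at 3474 and 3361 against 4274 and 3157. Of the plasmacytoid dendritic genes, Bst2 and Cox6a2 were lower and Siglech was higher on both CLP_RAGhigh arrays, while Tcf4 and Ccr9 overlapped. Single myeloid genes did not follow the myeloid sum. Csf1r read 6.79 and 8.26 in CLP_RAGhigh and 9.31 and 9.54 in CLP_RAGlow, and S100a8 read 9.63 and 9.60 in CLP_RAGhigh against 10.15 and 3.81 in CLP_RAGlow, where replicate 2 stood apart. The sums also overlapped for T-cell genes, from 93.9 to 108 over the 4 arrays, and stromal genes, from 66.2 to 92.8, while those of natural killer and innate lymphoid genes were 700 and 744 in CLP_RAGhigh and 598 and 678 in CLP_RAGlow. Means below the median of all probe sets were found for 2 of 5 T-cell, 4 of 5 natural killer and innate lymphoid, 1 of 8 myeloid, 0 of 5 plasmacytoid dendritic, 2 of 5 erythroid and megakaryocyte and 4 of 5 stromal genes. The share of all genes was 36.4%. CLP_RAGhigh replicate 1 stood apart in 14 immediate early genes, whose median deviation from each gene's mean was 0.93 there and between -0.45 and -0.19 elsewhere. For 19 genes of the G2 and M phases this deviation was -0.83 and 0.04 in CLP_RAGhigh and 0.10 and 0.88 in CLP_RAGlow. Of these 19 genes, 17 had a lower mean in CLP_RAGhigh, whereas 50.6% of all genes had a higher mean there. Groups were separate in that direction for 9, against 15.8% of all genes. An unadjusted limma p under 0.05 with lower values was reached by 7, against 2.94% of all genes. The median difference of the 19 genes was -1.23, farther from 0 than that of any pathway list described here. The part of these differences between arrays in the PI3K results was not tested. In RNA of sorted fractions, fewer cells that express a gene and less RNA of it per cell cannot be told apart.

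The genes of the PI3K gamma regulatory subunits, Pik3r6 and Pik3r5, read higher on both CLP_RAGhigh arrays than on both CLP_RAGlow arrays. Pik3cg, which encodes their catalytic partner, had nearly equal means in both fractions at its brightest probe set. The other Pik3cg probe set was lower on both CLP_RAGhigh arrays. Pik3cd and Inpp5d also had separate groups with higher values in CLP_RAGhigh, with a smaller gap between the nearest arrays than Pik3r6. Pik3ap1 had a lower mean in CLP_RAGhigh, with overlapping groups. No gene reached an adjusted p under 0.05 in limma, so these statements describe 4 arrays.

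Pik3r6 encodes p84, also called p87, a regulatory subunit that links p110 gamma to G protein beta-gamma subunits and Ras. Its brightest probe set, 1443816_s_at, had log2 intensities of 9.84 and 9.70 in CLP_RAGhigh (replicates 1 and 2), against 7.35 and 7.49 in CLP_RAGlow. The arrays of a fraction lay close together and the fractions far apart. The means (± SD of 2 arrays) were 9.77 ± 0.096 in CLP_RAGhigh and 7.42 ± 0.10 in CLP_RAGlow, apart by 2.35 on the log2 scale or 5.08-fold. The suffix _s_at marks probes that match more than 1 transcript.

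The other Pik3r6 probe set, 1437956_at, carries no such mark. It read 7.65 and 7.29 in CLP_RAGhigh and 4.40 and 3.98 in CLP_RAGlow, a difference of 3.28 or 9.73-fold. Its CLP_RAGlow values lay just above the median of all probe sets, where background weighs on a fold. With 32 added to the linear values before log2, the differences of the probe sets were 2.06 for 1437956_at and 2.15 for 1443816_s_at, so that most of the distance between them was gone. Of all 18193 genes, 31 had a larger positive difference than Pik3r6.

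Pik3r5 encodes p101, the alternative regulatory subunit of PI3K gamma, which binds G protein beta-gamma subunits. Its 1 probe set read 7.21 and 7.69 in CLP_RAGhigh and 5.68 and 6.29 in CLP_RAGlow. Both CLP_RAGhigh arrays were above both CLP_RAGlow arrays. The difference was 1.47 ± 0.41 on the log2 scale (SE, n = 2 per group), or 2.76-fold, with a 95% interval from 0.45 to 2.48. The unadjusted limma p was 0.0127 and the adjusted p over all genes was 0.813.

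Pik3cg encodes p110 gamma, the catalytic subunit that both of them bind. Probe set 1422707_at read 8.13 and 8.08 in CLP_RAGhigh and 7.88 and 8.41 in CLP_RAGlow. The CLP_RAGhigh values fell between those of the CLP_RAGlow arrays. The difference was -0.04 ± 0.34 (limma adjusted p = 1), and its 95% interval from -0.88 to 0.80 leaves room for a change of either sign. The dimmer probe set, 1422708_at, read 6.76 and 7.09 in CLP_RAGhigh and 7.32 and 7.56 in CLP_RAGlow, with the groups separate in the opposite direction to Pik3r6. Its difference was -0.51 ± 0.34 (limma adjusted p = 1 over all probe sets).

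Pik3r5 and Pik3r6 are neighbours on mouse chromosome 11 in the RefSeq annotation of GRCm38.p6. Beyond Pik3r6 comes Mfsd6l, named for its similarity to transporters of the major facilitator superfamily, which read 5.59 and 4.77 in CLP_RAGhigh and 4.69 and 4.46 in CLP_RAGlow. Its difference was 0.60, with CLP_RAGlow replicate 1 close to CLP_RAGhigh replicate 2. Ccdc42os, a long non-coding RNA gene a little further on, had a difference of 0.02 with overlapping groups. The other 4 of the 6 nearest annotated genes were not measured here.

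The RefSeq promoter table had entries for 8 of the 9 genes, in 12 windows, and the sequences below are the 250 bases before a transcription start. They are shown for Pik3r5, its partner Pik3cg and the phosphatase gene Inpp5d, to set a regulatory subunit whose groups were separate beside a catalytic subunit whose groups overlapped at the brightest probe set. Capitals mark the E-box CANNTG and the core of PU.1 sites, GAGGAA, on either strand. Pik3cg had another window, chr12:32208660-32208909, which overlaps the one shown and has 2 E-boxes and 0 PU.1 cores. Build and orientation are GRCm38.p6 and 5′ to 3′ along the gene.
Pik3r5, chr11:68431875-68432124, plus strand: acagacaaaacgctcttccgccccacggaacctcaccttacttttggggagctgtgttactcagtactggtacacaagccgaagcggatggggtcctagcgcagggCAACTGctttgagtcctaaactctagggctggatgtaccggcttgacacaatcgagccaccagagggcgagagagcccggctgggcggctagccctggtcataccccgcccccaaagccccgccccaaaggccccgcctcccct
Pik3cg, chr12:32208471-32208720, minus strand: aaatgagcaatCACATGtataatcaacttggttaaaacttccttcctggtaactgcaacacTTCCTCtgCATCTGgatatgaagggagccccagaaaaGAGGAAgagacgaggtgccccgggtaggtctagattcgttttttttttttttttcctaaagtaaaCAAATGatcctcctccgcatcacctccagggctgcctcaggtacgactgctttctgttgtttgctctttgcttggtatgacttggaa
Inpp5d, chr1:87620062-87620311, plus strand: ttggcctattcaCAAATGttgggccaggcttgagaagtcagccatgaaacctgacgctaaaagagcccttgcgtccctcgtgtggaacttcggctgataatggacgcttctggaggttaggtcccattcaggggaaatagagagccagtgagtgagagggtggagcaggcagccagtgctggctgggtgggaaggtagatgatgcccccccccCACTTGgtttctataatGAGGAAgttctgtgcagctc

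An E-box was in 8 of the 12 windows, against 66.2% of 32851 promoter windows of all genes. The PU.1 core was in 3 of 12, against 23.3% of all. The core CCCNNGGG, bound by EBF, was in 0 of 12 windows (11.8% of all), as was the octamer ATGCAAAT (1.6%) and the RUNX core TGTGGT (14% of all). The FOXO motif TGTTTAC was in 1 of 12, a Pik3cg window (3.17% of all). All were searched on both strands, and these motifs can overlap each other. A match is a run of letters and not a shown binding site, and a window without a match says nothing of binding elsewhere.

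**Figure D1:**
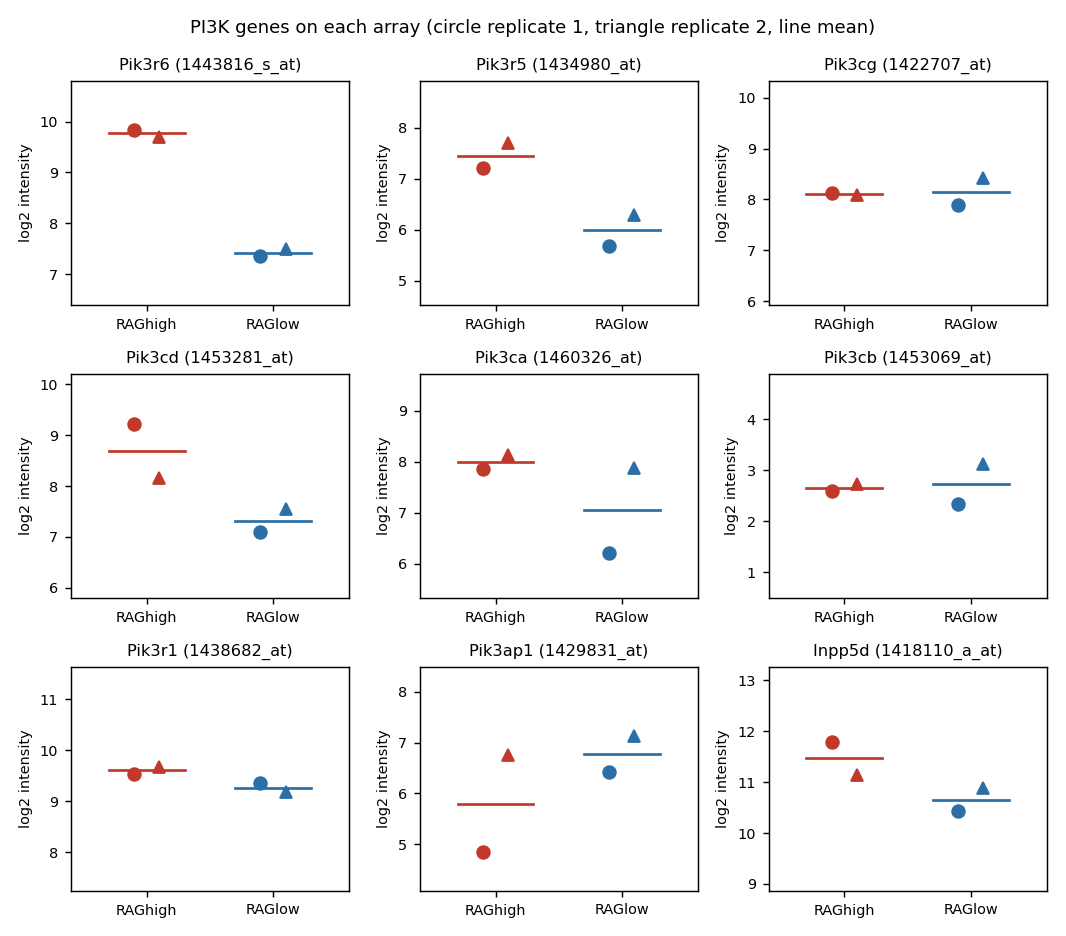
Log2 intensity (vertical axis, with the same span but its own centre in every panel) of the brightest probe set of each gene on each array, with CLP_RAGhigh in red at the left and CLP_RAGlow in blue at the right. Circles are replicate 1, triangles replicate 2 and lines the group means; Pik3r6 has 9.84 and 9.70 in CLP_RAGhigh against 7.35 and 7.49 in CLP_RAGlow, and the Pik3cg points overlap.

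Pik3cd encodes p110 delta, the catalytic subunit enriched in leukocytes and used by antigen receptors. Its brightest probe set, 1453281_at, read 9.22 and 8.15 in CLP_RAGhigh and 7.09 and 7.55 in CLP_RAGlow. The groups did not overlap, with CLP_RAGhigh replicate 1 well above the rest. The difference was 1.37 ± 0.46 or 2.58-fold (limma unadjusted p = 0.0261, adjusted p = 0.881). Without CLP_RAGhigh replicate 1, the array with high immediate early genes, it was 0.83.

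The 6 probe sets of Pik3cd did not read alike. The groups were separate, with higher values in CLP_RAGhigh, for 5 of the 6, but 2 of these, 1422991_at and 1458321_at, had means below the median of all probe sets. Probe set 1446770_at read 5.56 and 6.44 in CLP_RAGhigh and 3.05 and 5.36 in CLP_RAGlow, and 1422992_s_at read 5.30 and 4.35 against 3.75 and 3.93. Both show CLP_RAGhigh above CLP_RAGlow by a narrow gap. The exception, 1443798_at, was bright on all arrays, at 7.29 and 7.56 in CLP_RAGhigh and 7.56 and 7.35 in CLP_RAGlow, with a difference of -0.03 ± 0.32. Averaged over its probe sets, Pik3cd had a difference of 0.77.

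Pik3ca and Pik3cb encode the catalytic subunits p110 alpha and p110 beta, which most tissues express. For Pik3ca, probe set 1460326_at read 7.87 and 8.14 in CLP_RAGhigh and 6.21 and 7.88 in CLP_RAGlow. The groups overlapped, and CLP_RAGlow replicate 1 was the low array. The difference of 0.95 ± 0.60 (limma adjusted p = 0.979) was 0.12 without that array. The 6 Pik3ca probe sets ranged from -0.52 to 0.95 in their differences, 4 positive and 2 negative, and their average was 0.24. The single Pik3cb probe set was dim, at 2.59 and 2.73 in CLP_RAGhigh and 2.33 and 3.12 in CLP_RAGlow. At that brightness the difference of -0.07 ± 0.28 (limma adjusted p = 1) says little of the gene.

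Pik3r1 encodes p85 alpha and its shorter forms, which stabilise the alpha, beta and delta catalytic subunits and hold them inactive until a receptor is engaged. Probe set 1438682_at read 9.54 and 9.68 in CLP_RAGhigh and 9.36 and 9.18 in CLP_RAGlow. The groups were separate by a small step, with a difference of 0.34 ± 0.24 (limma adjusted p = 0.985) and a 95% interval from -0.24 to 0.93. The other 3 probe sets pointed the other way, with differences of -0.29, -0.30 and -0.38 and overlapping groups. Averaging all 4 turned the sign, to -0.16.

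Pik3ap1 encodes BCAP, an adaptor that brings PI3K to receptors of B cells and to Toll-like receptors. Its probe set 1429831_at read 4.84 and 6.76 in CLP_RAGhigh and 6.43 and 7.12 in CLP_RAGlow. CLP_RAGhigh replicate 1 was far below the other 3 arrays, and CLP_RAGhigh replicate 2 lay between the CLP_RAGlow arrays. The difference of -0.97 ± 0.69 (limma adjusted p = 0.985) was -0.01 without CLP_RAGhigh replicate 1, -1.93 without CLP_RAGhigh replicate 2 and -0.60 as the average of both probe sets. The other probe set, 1421285_at, was dim and had a difference of -0.23 ± 0.30.

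Inpp5d encodes SHIP-1, the phosphatase of blood cells that removes the 5-phosphate of PIP3 and so limits PI3K signals; it is the one lipid phosphatase among the 9 genes. Probe set 1418110_a_at read 11.79 and 11.15 in CLP_RAGhigh and 10.44 and 10.88 in CLP_RAGlow. The groups were separate, and every array was bright. The difference was 0.81 ± 0.27 or 1.76-fold (limma unadjusted p = 0.0240, adjusted p = 0.869), with a 95% interval from 0.15 to 1.47. Without CLP_RAGhigh replicate 1 it was 0.49. Its other probe set, 1424195_a_at, read 6.87 and 6.59 in CLP_RAGhigh against 5.74 and 6.46 in CLP_RAGlow, a difference of 0.63 ± 0.41 with the groups separate in the same direction.

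**Figure D2:**
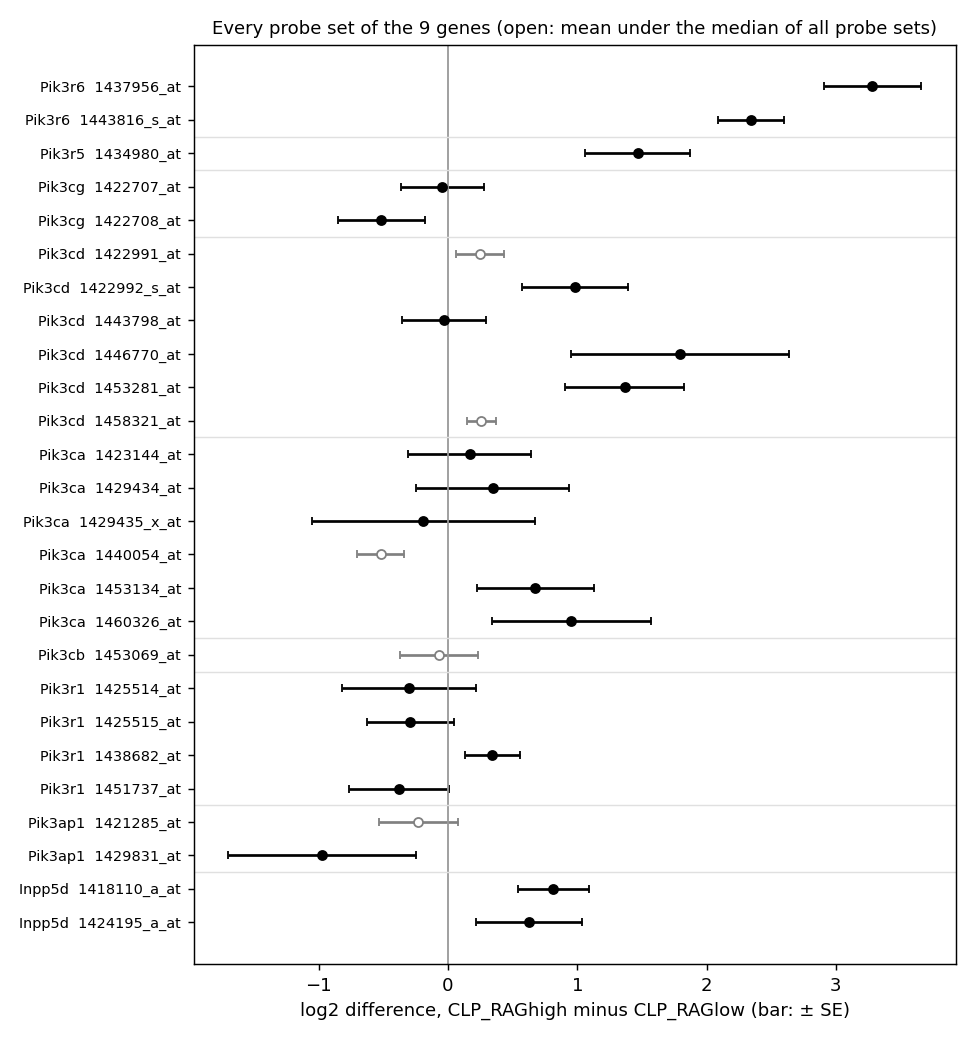
Log2 difference (CLP_RAGhigh minus CLP_RAGlow, horizontal axis) of each of the 26 probe sets, grouped by gene, with bars of 1 SE from the fit over all probe sets; open grey points have a mean below the median of all probe sets. Both points of Pik3r6, which was picked for its difference, lie farthest right, at 2.35 and 3.28. The probe sets of Pik3cd, Pik3ca and Pik3r1 fall on both sides of 0.

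Among the 8 genes other than Pik3r6, groups were separate with CLP_RAGhigh higher for 4, namely Pik3r5, Pik3cd, Pik3r1 and Inpp5d, and with CLP_RAGhigh lower for 0. Over all genes these shares were 15.4% and 15.8%. By probe set, 10 of 24 lay above and 2 below, where 15.5% and 15.2% of all probe sets did, and probe sets of a gene read the same RNA and are not independent. The 8 genes were listed with earlier results known, so their share has no test. With limma, 0 of the 8 had an adjusted p under 0.05, as 0 of 18193 genes did (0%), and 0 of 34945 probe sets (0%), while the smallest adjusted p of any gene was 0.0620. An unadjusted p under 0.05 was reached by 3 of the 8 genes with higher values in CLP_RAGhigh and by 0 with lower values, against 2.35% and 2.94% of all genes. The median difference of the 8 genes was 0.58, and that of all genes 0.0028.

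**Figure D3:**
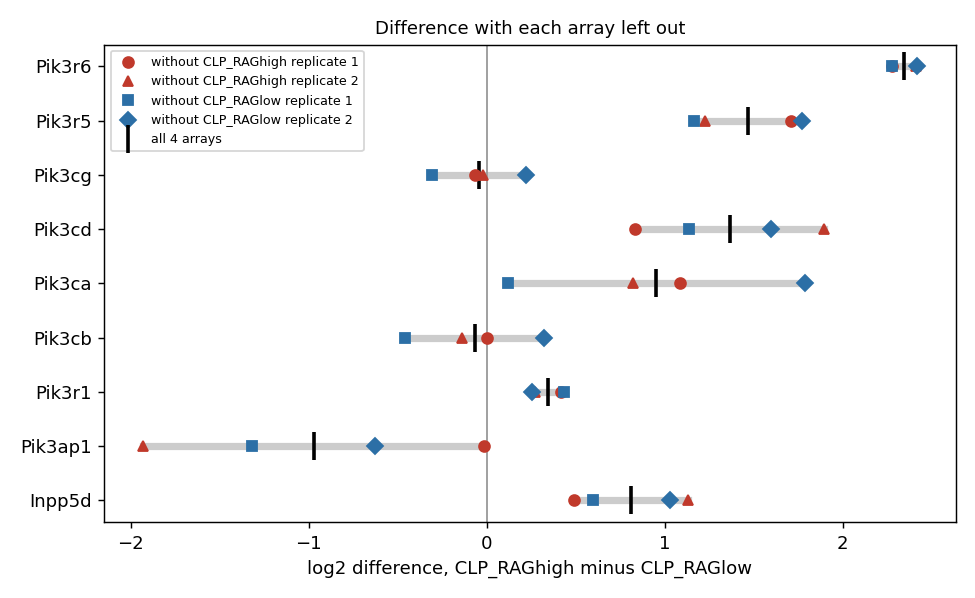
Log2 difference (CLP_RAGhigh minus CLP_RAGlow, horizontal axis) of each gene on all 4 arrays (black tick) and with each array left out in turn (red, a CLP_RAGhigh array; blue, a CLP_RAGlow array). Pik3r6 lies between 2.27 and 2.42, but it was picked for its difference on these same arrays, so its range is a description only. Pik3r5 lies between 1.16 and 1.77, Pik3cg and Pik3cb cross 0 and Pik3ap1 runs from -1.93 to -0.01.

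The genes most like Pik3r6 over the 4 arrays, by the root mean square difference of log2 values after each gene's own mean was subtracted, were Mzb1 (0.18), Chchd10 (0.18), Wdr47 (0.22), 2310001H17Rik (0.23) and Ankrd50 (0.24). Mzb1, which encodes a protein of the endoplasmic reticulum in B cells, read 9.32 and 9.49 in CLP_RAGhigh and 6.91 and 7.43 in CLP_RAGlow. Chchd10, for a mitochondrial protein, averaged 10.59 in CLP_RAGhigh against 8.53 in CLP_RAGlow. Of the PI3K genes, Pik3r5 was nearest to Pik3r6, at 0.52, with 50 genes nearer, and Pik3cd came next at 0.60, with 109 genes nearer. Pik3cg stood at 1.20, with 9524 genes nearer. Because Pik3r6 was picked for its difference on these arrays, nearness to it partly repeats a gene's own difference between the fractions. That difference was 1.47 for Pik3r5, 1.37 for Pik3cd and -0.04 for Pik3cg. Whether these genes vary together beyond it was not tested.

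Of 93 other genes of the pathway in 6 lists, 84 were measured, and 0 passed limma over all genes. Both CLP_RAGhigh arrays were above both CLP_RAGlow arrays for 19 of the 84 (22.6%) and below for 10 (11.9%), where 15.4% and 15.8% of all genes were. An unadjusted limma p under 0.05 was found for 7 with higher and 2 with lower values in CLP_RAGhigh. Over all genes these shares were 2.35% and 2.94%. The median difference of the 84 genes was 0.05. The lists' medians ran from -0.15 for 14 genes upstream of PI3K gamma, such as those of G proteins, to 0.28 for 22 PIP3 effectors, and single arrays moved all 6. Without CLP_RAGhigh replicate 2 the median was 0.28 for the upstream genes, 0.19 for other subunits (-0.01 on all arrays), -0.17 for phosphatases and inhibitors (0.14) and 0.40 for adaptors (0.06). Without CLP_RAGhigh replicate 1 it was -0.04 for the PIP3 effectors and 0.16 for the AKT and mTOR axis (-0.00053), which also had 0.16 without CLP_RAGlow replicate 1.

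By list, CLP_RAGhigh lay above CLP_RAGlow without overlap for 1 of 6 other subunits, 2 of 13 phosphatases and inhibitors, 3 of 11 adaptors, 1 of 14 upstream genes, 6 of 22 effectors and 6 of 18 genes of the AKT and mTOR axis. It lay below for 0, 3, 2, 1, 2 and 2 of them in the same order. Over all genes, 15.4% lay above and 15.8% below, and lists this short cannot be told from those shares.

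Among other PI3K subunits, the groups were separate for 1 gene, Pik3c2a, which encodes a class II enzyme. Pik3c2a averaged 8.60 in CLP_RAGhigh against 7.42 in CLP_RAGlow, a difference of 1.18 ± 0.31 (limma adjusted p = 0.745), which was 0.36 with its 3 probe sets averaged. Pik3r4, the regulatory subunit of the class III enzyme, had a difference of -0.46 ± 0.48 that turned to 0.21 without CLP_RAGhigh replicate 2. Pik3c2g, near the floor of the arrays, had -0.06, and 0.02 without CLP_RAGlow replicate 2. Among the phosphatases and inhibitors, Pik3ip1, which binds and restrains p110, read 10.86 and 9.56 in CLP_RAGhigh against 8.46 and 8.90 in CLP_RAGlow. Its groups were separate, and the difference of 1.53 ± 0.46 (limma adjusted p = 0.837) was 0.88 without CLP_RAGhigh replicate 1. Inpp5a, which acts on soluble inositol phosphates, had a difference of -1.25 ± 0.65, which was -0.34 without CLP_RAGhigh replicate 2 and -0.63 with an offset of 32 before log2. Inpp5f, another inositol phosphatase gene, had 0.72 ± 0.37, and 0.44 with its 3 probe sets averaged.

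Of 11 genes of adaptors and co-receptors that activate PI3K, the mean of 9 was higher in CLP_RAGhigh and that of 2 was lower. Over all genes, 50.6% had a higher mean in CLP_RAGhigh. The median difference of the 11 genes was only 0.06, with 0 at a limma adjusted p under 0.05. Irs1, an insulin receptor substrate, averaged 2.38 in CLP_RAGhigh against 4.91 in CLP_RAGlow, a difference of -2.53 ± 0.63 that was -0.79 with the offset of 32 and -1.68 without CLP_RAGlow replicate 1. Its relative Irs2 had a difference of 1.20 ± 0.36, and the docking protein gene Gab3 of -1.69 ± 0.51, which became 0.58 and -0.81 with the offset. Without CLP_RAGlow replicate 2 the Gab3 difference was -1.02. Upstream of PI3K gamma, where the regulatory subunits act, the G protein subunit gene Gnb5 had a difference of -1.11 ± 0.63, which was -0.15 without CLP_RAGlow replicate 1 and -0.46 with probe sets averaged. Gnb4, of the same family, had -0.63 ± 0.64, which turned to 0.30 without CLP_RAGhigh replicate 2 and was -0.11 as the average of its 3 probe sets. Rasgrp2, an activator of Rap proteins, had 0.31 ± 0.29. None of these genes had a limma adjusted p under 0.05.

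Among genes of proteins that bind or follow PIP3, Cyth1, an exchange factor for ARF proteins, had a difference of 1.10 ± 0.33 (0.47 with probe sets averaged). Plcg2, the phospholipase of B-cell receptor signalling, averaged 10.84 in CLP_RAGhigh against 10.33 in CLP_RAGlow, a difference of 0.51 ± 0.19, and the adaptor gene Dapp1 had a difference of -0.60 ± 0.29 that was -0.11 with probe sets averaged. In the AKT and mTOR list, Trib3, whose product binds AKT, read 7.80 and 7.39 in CLP_RAGhigh and 5.70 and 5.38 in CLP_RAGlow. Both its CLP_RAGhigh arrays were above both CLP_RAGlow arrays, with a difference of 2.06 ± 0.37 (limma adjusted p = 0.472). Foxo1 read 10.15 and 9.0 in CLP_RAGhigh and 7.74 and 8.82 in CLP_RAGlow, a narrow separation with a difference of 1.30 ± 0.53 that was 0.72 without CLP_RAGhigh replicate 1 and 0.76 without CLP_RAGlow replicate 1. Rptor, of the mTOR complex, had 0.63 ± 0.35 at its brightest probe set and 0.04 with its 3 probe sets averaged, and 0.35 without CLP_RAGlow replicate 1.

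**Figure D4:**
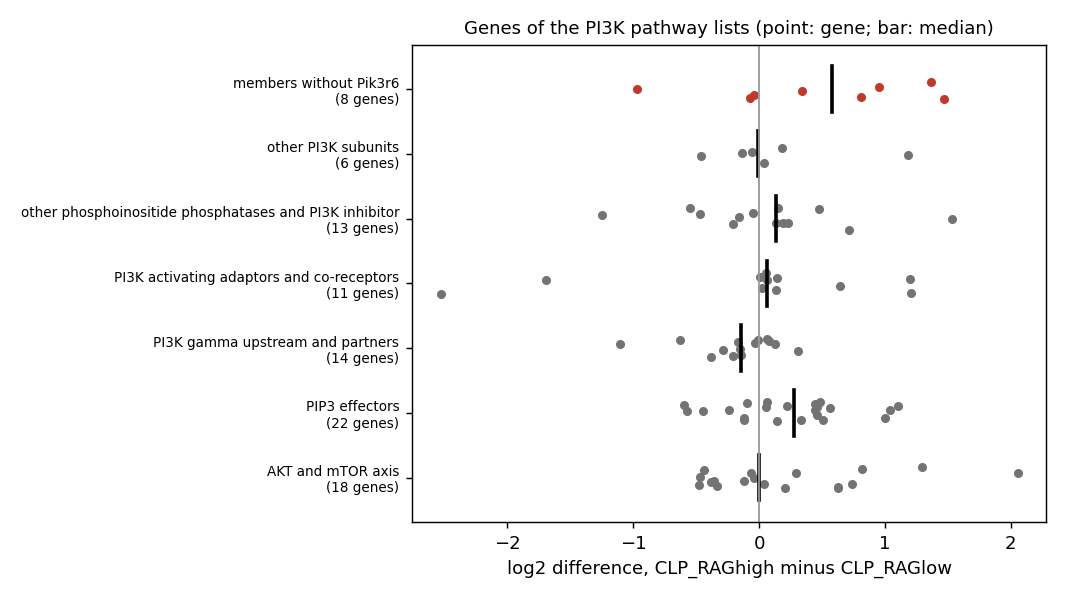
Log2 differences (CLP_RAGhigh minus CLP_RAGlow, horizontal axis) of the 8 PI3K genes without Pik3r6 (red) and of the genes in 6 pathway lists (grey), with 1 point per gene and a black bar at the median; vertical spread within a list is only for visibility. The medians of the lists lie between -0.15 and 0.28, and that of the 8 genes, which were listed with earlier results known, at 0.58.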

How the data were processed

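RNA of 4 sorted samples was hybridised to 1-colour Affymetrix arrays. The authors deposited 1 intensity per probe set from the RMA algorithm (background correction, normalization between arrays, summary of probes), per the labels' series design. The deposited intensities ran from 2.35 to 19893, so they are linear, and log2 values were computed from them. The software version is not given in the sources used here. Depth does not apply to arrays, whose number limits precision; array medians were 14.6 to 14.9.

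Of 45101 rows, 64 control probe sets were left out, and of the others 34945 had 1 gene in the platform annotation, 932 several and 9160 none, and the last 2 kinds were left out. For each of 18193 genes the probe set with the highest mean was kept. A second fit used all 34945. Groups were compared with limma 3.58.1 in R 4.3.3 (lmFit, eBayes with a trend over brightness, two-sided), Benjamini-Hochberg adjustment over all features and a threshold of 0.05, and tested on simulated data. Differences are CLP_RAGhigh minus CLP_RAGlow. Alternatives were averaged probe sets, an offset of 32, no trend, no dim genes and repeated quantile normalization. Others were the replicate number as a block, each array left out, and no probe sets with the suffix _x_at, _s_at or _a_at. Genes that had only such probe sets kept them.

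Members, lists and alternatives were chosen with earlier results of these data known. Named genes are the 9 members, the 5 genes most like Pik3r6, the 3 with the smallest p in each pathway list, and the 3 neighbours on each side of Pik3r5 and Pik3r6. Figures were drawn with matplotlib 3.10.9.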

Additional observations from a re-analysis of the deposited data

How the results depend on the processing

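The number of arrays, 2 per fraction, limits every value, and RMA does not separate signals below background from low expression. The difference of Pik3r6, 2.35, was 2.81 with probe sets averaged, 3.28 without the probe set marked _s_at and 2.15 with the offset of 32. The 8 other PI3K genes had an adjusted p above 0.05 under every alternative run, the lowest being 0.547 for Pik3r5. Signs turned for Pik3r1 with probe sets averaged (-0.16), and for Pik3cg (-0.31 to 0.22) and Pik3cb (-0.46 to 0.32) as arrays were left out. Genes past the adjusted threshold numbered 2 with probe sets averaged, 1 without dim genes, 3 with quantile normalization repeated and 7 with the replicate block, against 0, and 0 of the 8 tested PI3K genes were among them. Genes with an unadjusted p under 0.05, 963 on all arrays, numbered 539 (without CLP_RAGlow replicate 1) to 1634 (without CLP_RAGhigh replicate 1). The labels do not say whether same-numbered arrays shared an animal or a sort. Their deviations from the group means had a correlation of -0.01 over genes above the median brightness. With 2 arrays per fraction this value cannot decide whether they did. The cause of these changes was not tested.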
